A study of Homo sapiens with 7 samples.

Results

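The mitochondrially encoded genes were examined in human embryonic stem cell-derived β-like cells carrying an inducible knockdown of METTL14, a subunit of the nuclear m6A methyltransferase. They were taken as all genes of the count table whose symbol begins with MT-, which gave 37 of 66025 genes: 13 mRNAs, 2 rRNAs and 22 tRNAs. RNA was sequenced from 7 libraries of H1 cells, an established human embryonic stem cell line, differentiated to Stage 6 β-like cells, stained with the zinc probe DA-ZP1 and sorted. The iKD2 line carried a doxycycline-inducible lentiviral shRNA against METTL14 and the iSCR line carried a non-targeting shRNA in its place, and the study's methods describe lines made by transduction and puromycin selection. The groups were iKD2 with doxycycline (iKD2 Dox+, libraries a, b and c, n = 3), iKD2 without doxycycline (iKD2 Dox-, libraries b and c, n = 2) and iSCR with doxycycline (iSCR Dox+, libraries a and b, n = 2). Where single libraries are given, their values follow the order of these letters. All groups thus carry an integrated shRNA vector. The comparison of iKD2 Dox+ with iKD2 Dox- changes doxycycline and shRNA induction together, and that with iSCR Dox+ changes the line and the shRNA together. The comparison of the 2 control groups changes line and doxycycline together. In each comparison those factors cannot be told apart. The study describes the libraries as independent biological samples, while the labels give only replicate letters and do not say whether a letter marks a separate differentiation. The p-values measure the spread between these samples, and those of the fit share it across genes.

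Mitochondria keep a small circular genome that encodes core subunits of the respiratory chain and the RNAs needed to translate them. Both strands are transcribed from end to end as long precursors, in which the tRNAs lie between the mRNAs and rRNAs, and cutting the tRNAs out releases the other RNAs. Complex I, complex III, complex IV and ATP synthase each contain mitochondrially encoded subunits, whereas all proteins that copy, transcribe and cleave the genome are encoded in the nucleus. In β cells, respiratory ATP production couples glucose metabolism to insulin release.

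The heavy-strand transcript carries 12 of the 13 mRNAs, both rRNAs and 14 tRNAs, while the light-strand transcript carries MT-ND6 and 8 tRNAs. The genes lie so close together that some overlap, and the 2 strands differ sharply in base composition. Coordinates and sequences are given as in GENCODE 29 on GRCh38, where the mitochondrial genome is chromosome M; the build behind the deposited table is not given in the sources used here, and the genes were matched by Ensembl identifier. MT-ATP8 (ENSG00000228253, chrM:8366-8572, plus strand) ends inside MT-ATP6 (ENSG00000198899, chrM:8527-9207), and MT-ND4L (ENSG00000212907, chrM:10470-10766) ends inside MT-ND4 (ENSG00000198886, chrM:10760-12137), so a read that lies within an overlap belongs to both genes. The overlaps hold 46 and 7 bases and are shown in capitals with 30 bases on each side. The first 90 bases of MT-ND6 (ENSG00000198695, chrM:14149-14673, minus strand) and of MT-CYB (ENSG00000198727, chrM:14747-15887, plus strand) are shown with every G in capitals, to show the bias between strands.
MT-ATP8 into MT-ATP6, chrM:8497-8602, plus strand: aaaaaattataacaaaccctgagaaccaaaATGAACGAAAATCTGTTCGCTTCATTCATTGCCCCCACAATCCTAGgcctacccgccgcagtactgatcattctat
MT-ND4L into MT-ND4, chrM:10730-10796, plus strand: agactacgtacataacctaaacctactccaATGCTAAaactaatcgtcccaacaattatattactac
MT-ND6, chrM:14584-14673, minus strand: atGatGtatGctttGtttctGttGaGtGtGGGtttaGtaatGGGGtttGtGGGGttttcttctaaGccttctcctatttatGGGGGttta
MT-CYB, chrM:14747-14836, plus strand: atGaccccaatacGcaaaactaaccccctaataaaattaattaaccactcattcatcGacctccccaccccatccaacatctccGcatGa

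The stretch of MT-ND6 holds 27 G against 5 in that of MT-CYB. Over the whole gene, MT-ND6 was 35.6% G and 7.05% C, whereas MT-CYB was 34.3% C. Because MT-ND6 lies on the strand opposite to the heavy-strand precursor, its counts depend on whether strand was used in the quantification. The library kit preserves strand, but the setting used for counting is not given in the sources used here, so reads from the opposite strand cannot be told apart from MT-ND6 reads.

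Total estimated counts ranged from 14875429 to 20639156 per library. METTL14, the target of the shRNA, was at 18.7, 16.3 and 49.1 CPM (counts scaled to library size, after TMM scaling) in iKD2 Dox+, at 39.4 and 22.6 in iKD2 Dox-, and at 36.1 and 32.2 in iSCR Dox+. The highest METTL14 level of the 7 was thus in the library labelled iKD2 Dox+ c. Log2 fold changes of METTL14 in iKD2 Dox+ were -0.14 ± 0.63 (SE) against iKD2 Dox- and -0.28 ± 0.63 against iSCR Dox+. A lower METTL14 RNA level was therefore not detected in iKD2 Dox+, and directions drawn from the knockdown group rest on its labels. INS, which encodes insulin, ranged from 11365 to 22298 CPM, and all 12 β-cell markers examined were detected. INS fell in iKD2 Dox+ against iSCR Dox+, with a log2 fold change of -0.85 ± 0.10 (SE; edgeR's quasi-likelihood test, Benjamini-Hochberg adjusted p = 0.000471), while against iKD2 Dox- the value was -0.39 ± 0.10 (adjusted p = 0.451). Between the controls, INS in iKD2 Dox- against iSCR Dox+ was at -0.45 ± 0.12 (edgeR's quasi-likelihood test, adjusted p = 0.614). GCG, which encodes the α-cell hormone glucagon, ranged from 5039 to 12846 CPM, and bulk counts cannot tell α cells from cells that express both hormones. Acinar markers summed to at most 20.0 CPM with 2 of 5 at 0 in every library, and the 5 pluripotent markers to 13.3 to 115 CPM. POU5F1 of that list was at 0 in 4 of 7 libraries, whereas SOX2, at 9.72 to 52.4 CPM, and LIN28A, at 1.09 to 57.6 CPM, were detected in all 7. Several marker lists moved with the groups. The 12 β-cell markers summed to 25642 to 29900.5 CPM in iKD2 Dox+, 34275 to 38106 in iKD2 Dox- and 40408 to 40655 in iSCR Dox+. Most of this sum came from INS and CHGA. Of the 12 markers, 2 had positive log2 fold changes for iKD2 Dox+ against iKD2 Dox- and 4 against iSCR Dox+. The 5 ductal markers summed to 834 to 959 CPM in iKD2 Dox+ against 430 to 563 and 484 to 574 in the controls, and the 6 mesenchymal markers to 693 to 1106 CPM against 282 to 405 and 623 to 695. The mesenchymal sum of iKD2 Dox+ thus overlapped that of iSCR Dox+, and most of it came from COL3A1. The part of these shifts in the mitochondrial values was not tested, and in bulk samples fewer cells of a type and less RNA per cell cannot be told apart.

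Mitochondrial genes took a small and similar part of every library. The 13 mRNAs held 2.70, 2.79 and 2.94% of all counts in iKD2 Dox+, 2.58 and 2.47% in iKD2 Dox-, and 2.74 and 2.48% in iSCR Dox+. The 2 rRNAs held 0.603 to 0.749% and the 22 tRNAs 0.00156 to 0.00517%, and all 37 genes together held 3.12 to 3.55%. The 3 iKD2 Dox+ libraries were above both iKD2 Dox- libraries in the share of mRNAs but overlapped the iSCR Dox+ libraries. The group means were 2.81 ± 0.124% (SD, n = 3), 2.53 ± 0.0782% (SD, n = 2) and 2.61 ± 0.180% (SD, n = 2). The difference of iKD2 Dox+ from iKD2 Dox- was 0.282 percentage points (two-sided exact permutation test, p = 0.10, the smallest that 3 against 2 allows), and from iSCR Dox+ it was 0.197 points (exact permutation test, p = 0.30). The 2 control groups differed by -0.0852 points (exact permutation test, p = 0.667, where the smallest possible is 0.333), and this test cannot reach 0.05 between groups of 3 and 2 or of 2 and 2. Leaving out the library labelled iKD2 Dox+ c gave 0.216 points for the first difference.

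**Figure D1:**
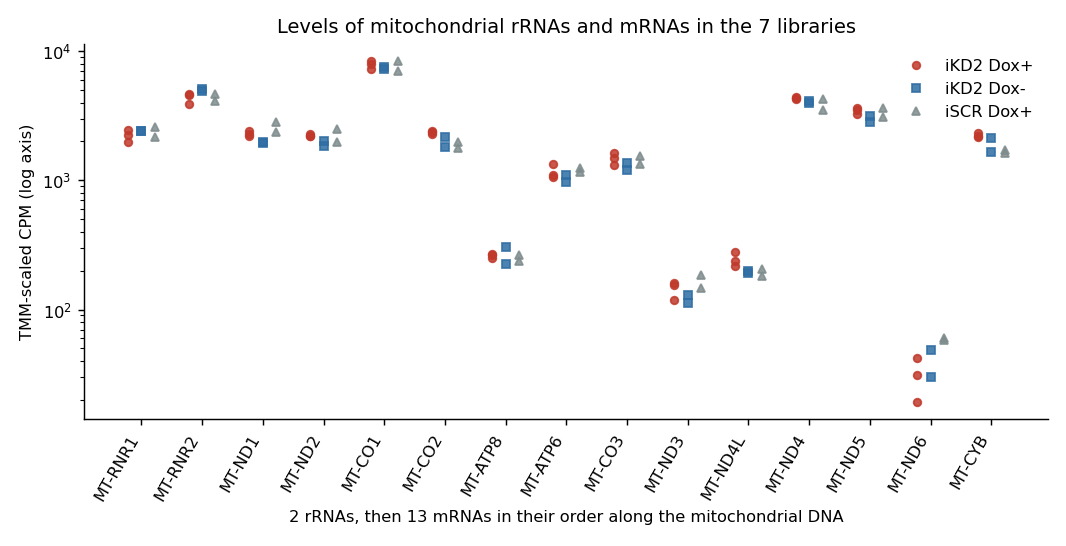
TMM-scaled CPM of the 2 rRNAs and 13 mRNAs on a log axis, 1 point per library, with iKD2 Dox+ as circles, iKD2 Dox- as squares and iSCR Dox+ as triangles. The 12 heavy-strand mRNAs span 1.20-fold to 1.64-fold across the 7 libraries, while MT-ND6 runs from 19.1 to 60.5 CPM.

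Compared per length, the levels of the mRNAs kept nearly the same order in all libraries. MT-CO1 (ENSG00000198804, chrM:5904-7445), the catalytic subunit of complex IV, ranked first in every library with a median of 4887 CPM per kb. MT-CO2 followed at 3177 and MT-ND4 at 3079 CPM per kb, with MT-CO2 above MT-ND4 in 5 of 7 libraries, so this order was not stable. MT-ND1, MT-ND2, MT-CYB, MT-ND5, MT-CO3 and MT-ATP6 came next, between 2383 and 1615 CPM per kb. Within that stretch MT-CYB was above MT-ND5 in 3 of 7 libraries, MT-ND5 above MT-CO3 in 5 and MT-CO3 above MT-ATP6 in 5, so these 4 could not be ordered beyond the spread between libraries. MT-ATP8, MT-ND4L, MT-ND3 and MT-ND6 held ranks 10, 11, 12 and 13 in all 7 libraries, with medians of 1268, 693, 428 and 80.3 CPM per kb. The 4 lowest included the 3 shortest mRNAs, MT-ATP8, MT-ND4L and MT-ND3, of 207, 297 and 346 bases. Levels were divided by the full gene length, and the part of gene length in their differences was not tested. MT-ND4L and MT-ND4, which share a bicistronic mRNA, were at 693 and 3079 CPM per kb. MT-CO1 was 60.9-fold above MT-ND6, and the 12 mRNAs of the heavy-strand transcript spanned 11.4-fold although they are transcribed as a single precursor. The lowest of these, MT-ND3, was 5.33-fold above MT-ND6, the only mRNA of the light-strand transcript.

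**Figure D2:**
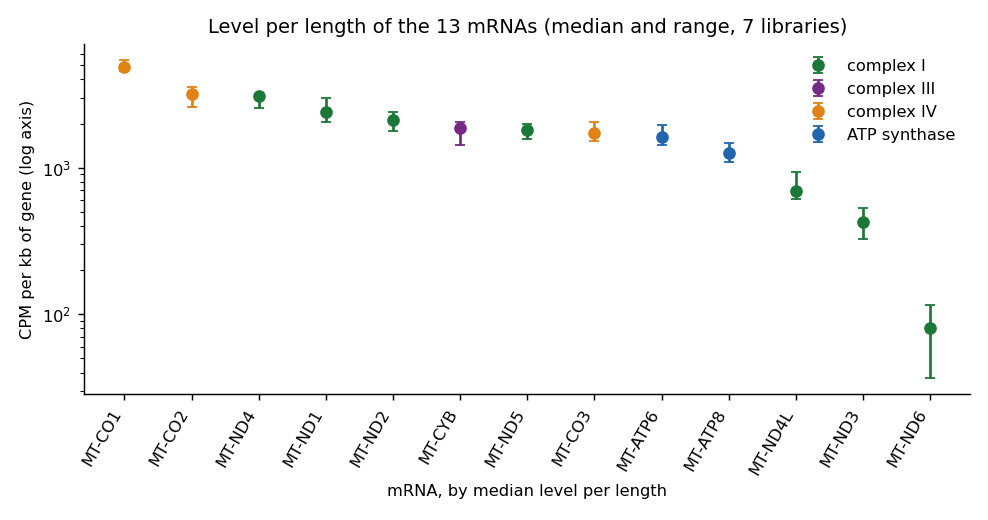
Level per length of the 13 mRNAs in CPM per kb on a log axis, ordered by the median of the 7 libraries, with bars from the lowest to the highest library and colours for the complexes. MT-CO1 lies at the top with a median of 4887 CPM per kb and MT-ND6 at the bottom with 80.3.

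Summed by complex, the 7 complex I mRNAs held 43.8 to 47.8% of all mitochondrial mRNA counts, the 3 complex IV mRNAs 40.2 to 42.6%, MT-CYB of complex III 5.67 to 8.18% and the 2 ATP synthase mRNAs 4.71 to 6.13%. For complex I, complex IV and ATP synthase, iKD2 Dox+ overlapped each control group. The share of complex III was 7.81, 8.03 and 8.06% in iKD2 Dox+, 8.18 and 6.79% in iKD2 Dox-, and 5.67 and 6.90% in iSCR Dox+. All iKD2 Dox+ libraries were above both iSCR Dox+ libraries, with a difference of 1.68 percentage points (exact permutation test, p = 0.10, the smallest possible), and they overlapped iKD2 Dox-. These shares are parts of a whole, so that a higher share of one complex lowers the others.

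Whether the RNA of single mitochondrial genes differed between the groups was tested in 1 fit of all 22926 genes that passed the filter on low counts. All 13 mRNAs and both rRNAs passed this filter, as did 14 of 22 tRNAs. With edgeR's quasi-likelihood test and Benjamini-Hochberg adjustment, 0 of 13 mRNAs, 0 of 2 rRNAs and 0 of 14 tRNAs were past an adjusted p of 0.05 in each of the 3 comparisons. Over all genes, 0.0393% were past it for iKD2 Dox+ against iKD2 Dox-, 0.0262% against iSCR Dox+, and 0.0131% for iKD2 Dox- against iSCR Dox+. At an unadjusted p of 0.05 the counts of mRNAs were 0, 2 and 1, beside 3.72%, 6.72% and 4.45% of all genes. When a 1.5-fold difference was required as well, 0 of 13 mRNAs were past both limits in each comparison, beside 3.55%, 6.52% and 4.38% of all genes. The adjusted count was 0 under each of 19, 19 and 18 alternative settings, while the unadjusted count ran from 0 to 6, 1 to 4 and 0 to 3. The highest counts came with limma voom, in which 5.34%, 6.87% and 6.04% of all genes were past the same limit.

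The median differences were small. For iKD2 Dox+ against iKD2 Dox-, 11 of 13 mRNAs had a positive log2 fold change, with a median of 0.20 over the 13 and 0.01 over all genes. Against iSCR Dox+, 8 of 13 were positive with a median of 0.03, beside 0.08 over all genes. Between iKD2 Dox- and iSCR Dox+, 5 of 13 were positive with a median of -0.17, beside 0.04 over all genes. Both comparisons of iKD2 Dox+ share those libraries, and the 12 heavy-strand mRNAs come from a shared precursor and library, so the members are not independent.

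The groups were also compared by whether their libraries overlapped. Against iKD2 Dox-, 7 of 13 mRNAs were higher in every iKD2 Dox+ library and 0 lower, beside 8.72% and 11.6% of all genes. Against iSCR Dox+, 4 were higher and 1 lower, beside 11.3% and 9.23% of all genes. Between iKD2 Dox- and iSCR Dox+, 0 were higher and 4 lower, beside 19.9% and 13.2% of all genes. MT-CO2, MT-ND4L, MT-ND4 and MT-CYB, 4 of 13 mRNAs, were above all 4 control libraries in every iKD2 Dox+ library, and 0 were below all 4. This last comparison was added after the values were seen, and 3.47% of all genes were above and 2.83% below in the same way. The same 4 genes stood apart without the library labelled iKD2 Dox+ c, where 6.80% of all genes were above. Without iSCR Dox+ a, MT-ND2 and MT-ND5 joined them, beside 5.37% of all genes. Leaving out a library can add genes to this count but cannot remove any, so it does not test the separation.

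**Figure D3:**
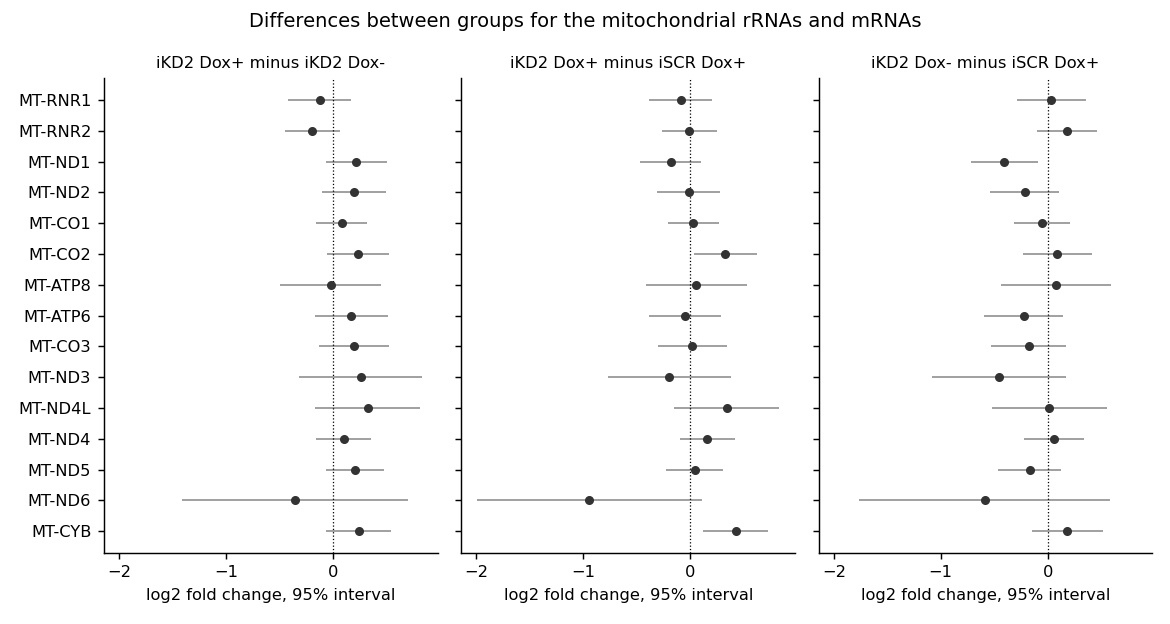
Log2 fold changes of the 2 rRNAs and 13 mRNAs with 95% confidence intervals from edgeR's quasi-likelihood fit, 1 panel per comparison. The intervals of MT-CO2 and MT-CYB lie above 0 against iSCR Dox+, that of MT-ND1 lies below 0 between the controls, and the other intervals include 0.

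MT-CYB, the only mitochondrially encoded subunit of complex III, had the lowest unadjusted p of the mRNAs for iKD2 Dox+ against iSCR Dox+. Its levels were 2154, 2223 and 2322 CPM in iKD2 Dox+, at 2123 and 1651 in iKD2 Dox-, and at 1620.0 and 1707 in iSCR Dox+. The 3 iKD2 Dox+ libraries were the highest of the 7, with iKD2 Dox- b next. The log2 fold change was 0.42 ± 0.15 (SE) against iSCR Dox+ (edgeR's quasi-likelihood test, unadjusted p = 0.00865, adjusted p = 0.627) and 0.24 ± 0.15 against iKD2 Dox- (adjusted p = 1.0). Neither passed the adjusted threshold. MT-CO2 (ENSG00000198712, chrM:7586-8269), which carries the copper centre that receives electrons from cytochrome c in complex IV, was at 2268, 2362 and 2428 CPM in iKD2 Dox+, at 2173 and 1824 in iKD2 Dox- and at 1975 and 1777 in iSCR Dox+. It was above every control library, with a log2 fold change of 0.33 ± 0.14 (SE) against iSCR Dox+ (edgeR's quasi-likelihood test, unadjusted p = 0.0307, adjusted p = 0.699) and 0.24 ± 0.14 against iKD2 Dox-. The other complex IV subunits showed no such separation. MT-CO1 ranged from 6993 to 8383 CPM and MT-CO3 (ENSG00000198938, chrM:9207-9990) from 1200.4 to 1617 CPM, and for both genes iKD2 Dox+ overlapped each control group.

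Among the complex I subunits, MT-ND4 and MT-ND4L, which share a bicistronic mRNA, were highest in iKD2 Dox+. MT-ND4 was at 4308, 4267 and 4413 CPM in iKD2 Dox+, at 4087 and 3989.6 in iKD2 Dox- and at 4243 and 3515 in iSCR Dox+. The lowest iKD2 Dox+ library lay just above iSCR Dox+ a, and the log2 fold changes were 0.10 ± 0.12 (SE) against iKD2 Dox- and 0.16 ± 0.12 against iSCR Dox+. MT-ND4L was at 279, 218 and 238 CPM in iKD2 Dox+, at 199 and 193 in iKD2 Dox- and at 206 and 181 in iSCR Dox+. Its log2 fold changes were 0.33 ± 0.24 (SE) and 0.34 ± 0.24, within 2 standard errors of 0. The ratio of MT-ND4L to MT-ND4 counts was 0.0648, 0.0512 and 0.0539 in iKD2 Dox+, against 0.0483 to 0.0515 in the controls, above both iKD2 Dox- libraries and overlapping iSCR Dox+.

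MT-ND1 (ENSG00000198888, chrM:3307-4262), a membrane subunit of complex I and the mRNA nearest to the rRNAs, had the lowest unadjusted p of the mRNAs between the 2 control groups. Its levels were 1948 and 1994 CPM in iKD2 Dox-, at 2840.1 and 2378 in iSCR Dox+, and at 2427, 2278 and 2188 in iKD2 Dox+. Both iKD2 Dox- libraries were the lowest of the 7. The log2 fold change of iKD2 Dox- against iSCR Dox+ was -0.40 ± 0.15 (SE; edgeR's quasi-likelihood test, unadjusted p = 0.0139, adjusted p = 0.826), while iKD2 Dox+ differed by 0.22 ± 0.14 from iKD2 Dox- and by -0.18 ± 0.14 from iSCR Dox+. The ratio of MT-CYB to MT-ND1 counts, chosen after the values were seen, was 0.887, 0.976 and 1.06 in iKD2 Dox+, 1.09 and 0.828 in iKD2 Dox-, and 0.570 and 0.718 in iSCR Dox+. Both iSCR Dox+ libraries were the lowest of the 7 in this ratio, and the difference of iKD2 Dox+ from iSCR Dox+ was 0.331 (exact permutation test, p = 0.10). The remaining heavy-strand complex I mRNAs were MT-ND2, MT-ND3 and MT-ND5, which encode further membrane subunits. MT-ND2 ranged from 1849 to 2513 CPM, MT-ND3 from 112 to 184 and MT-ND5 from 2837 to 3618, and in each iSCR Dox+ reached above at least 2 iKD2 Dox+ libraries.

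MT-ND6, the complex I subunit on the light-strand transcript, varied most of all mRNAs. Its levels were 19.1, 31.3 and 42.2 CPM in iKD2 Dox+, at 30.0 and 49.0 in iKD2 Dox-, and at 60.5 and 58.5 in iSCR Dox+, from 320 to 900 counts per library. Both iSCR Dox+ libraries were the highest of the 7, and the 2 iKD2 groups overlapped. The spread over the 7 libraries was 3.16-fold for MT-ND6, against 1.20-fold to 1.64-fold for the 12 heavy-strand mRNAs. The log2 fold change was -0.95 ± 0.51 (SE) for iKD2 Dox+ against iSCR Dox+ (edgeR's quasi-likelihood test, unadjusted p = 0.0755, adjusted p = 0.699) and -0.59 ± 0.56 for iKD2 Dox- against iSCR Dox+. Against iKD2 Dox- the value for iKD2 Dox+ was -0.36 ± 0.51, and it became 0.04 without iKD2 Dox- c.

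Relative to the heavy-strand mRNAs of the same library, which removes the scaling between libraries, MT-ND6 had 0.694, 1.13 and 1.47 counts per 1000 in iKD2 Dox+. It had 1.16 and 2.02 in iKD2 Dox-, and 2.12 and 2.37 in iSCR Dox+. The iSCR Dox+ libraries were again the highest. On the log2 scale this ratio differed by -1.10 between iKD2 Dox+ and iSCR Dox+ (exact permutation test, p = 0.20), by -0.54 between iKD2 Dox+ and iKD2 Dox- (exact permutation test, p = 0.40) and by -0.55 between iKD2 Dox- and iSCR Dox+ (exact permutation test, p = 0.333). With the 4 control libraries pooled, the difference of iKD2 Dox+ was -0.82 (exact permutation test, p = 0.0857, where 3 against 4 can reach 0.0286).

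**Figure D4:**
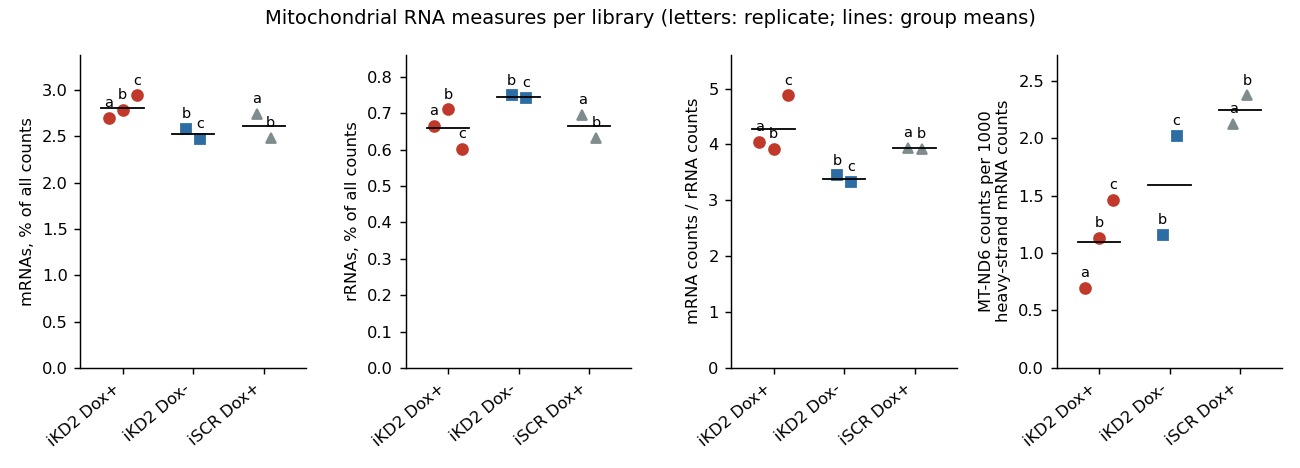
Share of all counts in mitochondrial mRNAs and rRNAs, the ratio of mRNA to rRNA counts, and MT-ND6 counts per 1000 heavy-strand mRNA counts, with 1 point per library marked by its replicate letter, lines for group means and axes from 0. MT-ND6 is highest in the 2 iSCR Dox+ libraries (2.12 and 2.37), and the mRNA to rRNA ratio is lowest in the 2 iKD2 Dox- libraries (3.45 and 3.33).

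The ATP synthase mRNAs, whose products belong to the membrane part of the enzyme, did not separate iKD2 Dox+ from the controls. MT-ATP6 ranged from 968 to 1333 CPM with iKD2 Dox- below iSCR Dox+, and MT-ATP8 from 225 to 304 CPM with all groups overlapping. MT-ATP8 had 0.197 to 0.279 counts for each count of MT-ATP6.

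The rRNAs went the other way from most mRNAs in the comparison with iKD2 Dox-. The library kit removes ribosomal fragments, so these values are what that step left. MT-RNR2 (ENSG00000210082, chrM:1671-3229), the RNA of the large mitochondrial ribosomal subunit, was at 4560.2, 4624 and 3918 CPM in iKD2 Dox+, at 5104 and 4885 in iKD2 Dox-, and at 4681 and 4124 in iSCR Dox+. Both iKD2 Dox- libraries were the highest of the 7, and iKD2 Dox+ overlapped iSCR Dox+. The log2 fold change was -0.19 ± 0.12 (SE) against iKD2 Dox- (edgeR's quasi-likelihood test, unadjusted p = 0.131, adjusted p = 1.0) and -0.01 ± 0.12 against iSCR Dox+. MT-RNR1 (ENSG00000211459, chrM:648-1601), the RNA of the small subunit, ranged from 1991 to 2576 CPM with all groups overlapping, and its log2 fold changes were -0.12 ± 0.14, -0.09 ± 0.14 and 0.03 ± 0.15. MT-RNR2 had 1.82 to 2.10 counts for each count of MT-RNR1. The ratio of mRNA to rRNA counts was 4.05, 3.92 and 4.88 in iKD2 Dox+, 3.45 and 3.33 in iKD2 Dox-, and 3.94 and 3.93 in iSCR Dox+. The iKD2 Dox- libraries were the lowest of the 7, and the library labelled iKD2 Dox+ c the highest. This ratio was chosen after the values were seen, and it differed by 0.895 between iKD2 Dox+ and iKD2 Dox- (exact permutation test, p = 0.20) and by 0.350 between iKD2 Dox+ and iSCR Dox+ (exact permutation test, p = 0.70).

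The tRNAs were nearly absent from these libraries. All 22 together had 3347 estimated counts over the 7 libraries, 2684 from the heavy-strand and 663 from the light-strand transcript, and 20 had at least 10 counts in total. Their genes are 59 to 75 bases long, shorter than the 100-base reads, so that counts assigned to them need not be mature tRNAs. MT-TV (ENSG00000210077, chrM:1602-1670, plus strand), the tRNA for valine between the 2 rRNA genes, held 38.5% of these counts and is shown whole, without capitals, as the best-measured of the class.
MT-TV, chrM:1602-1670, plus strand: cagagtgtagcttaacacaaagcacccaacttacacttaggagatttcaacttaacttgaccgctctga

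MT-TV had 193, 187 and 148 counts in iKD2 Dox+, 276 and 172 in iKD2 Dox-, and 197 and 117 in iSCR Dox+, so the groups overlapped. The next 5, MT-TL1, MT-TP, MT-TE, MT-TS2 and MT-TH, had 360, 249, 248, 229 and 183 counts in total. Some of these totals came from few libraries. MT-TP had 231 of its 249 counts in iSCR Dox+ a and 0 in iSCR Dox+ b, where a count of 0 allows up to 3 counts. MT-TS2 had 107 counts in iSCR Dox+ a and 14 to 27 elsewhere, and MT-TT had 36 of its 41 counts in iKD2 Dox+ b. MT-TL2 had 11 and 9 counts in iSCR Dox+, 0 and 2 in iKD2 Dox- and 0 in each iKD2 Dox+ library. MT-TH and MT-TN were lower in every iKD2 Dox+ library than in all 4 controls on the CPM scale, with 13 to 20 against 21 to 58 counts for MT-TH and 3 to 8 against 8 to 15 for MT-TN. These were 2 of 22 tRNAs, beside the 2.83% of tested genes that were lower in this way, and MT-TN was not tested and had equal counts at the boundary. The other tRNAs with 10 counts or more were MT-TF with 125, MT-TM with 82, MT-TK with 74, MT-TD with 72, MT-TW with 65, MT-TR with 61, MT-TG with 44, MT-TC with 39, MT-TI and MT-TA with 36 each and MT-TQ with 26, and their iKD2 Dox+ libraries overlapped the pooled controls. The 2 remaining tRNAs had 1 count each. By pairs of groups, 0 of 22 tRNAs were higher and 6 lower in every iKD2 Dox+ library against iKD2 Dox-, beside 8.72% and 11.6% of tested genes. Against iSCR Dox+, 1 was higher and 4 lower, beside 11.3% and 9.23%. Between iKD2 Dox- and iSCR Dox+, 3 were higher and 2 lower, beside 19.9% and 13.2%. Only 14 of these 22 tRNAs passed the filter on low counts. Standard errors of the log2 fold changes of the 14 tested tRNAs ran from 1.14 to 3.82. For iKD2 Dox+ against iKD2 Dox-, the confidence interval of the log2 fold change of MT-TV ran from -2.47 to 2.25. That of MT-TL1, the next in counts, ran from -5.39 to 4.66. Differences of several-fold in MT-TV, and much larger ones in the other tested tRNAs, could therefore have been missed at this depth.

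**Figure D5:**
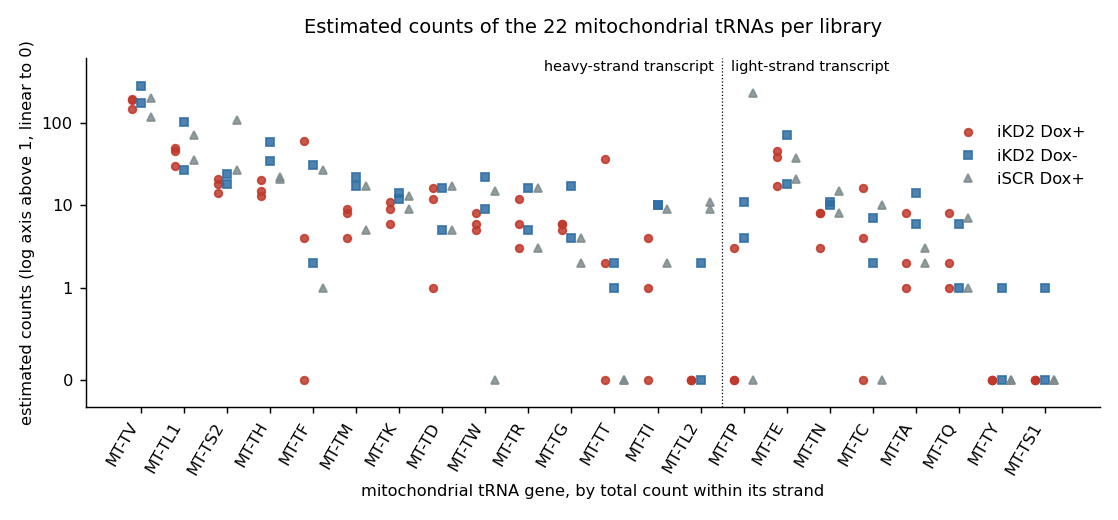
Estimated counts of the 22 tRNAs per library on a log axis that is linear below 1, with the heavy-strand transcript left and the light-strand transcript right of the dotted line. MT-TV has 117 to 276 counts in each library, while the 231 counts of MT-TP in iSCR Dox+ a stand alone above at most 11 in the other libraries.

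The nuclear genome holds copies of mitochondrial genes, and reads from stretches identical to a copy cannot be assigned to either with certainty. The share of 31-base words found in other GENCODE 29 transcripts as well was 66.7% for MT-CO1, 63.7% for MT-ATP6, 56.9% for MT-ND2, 50.5% for MT-CO2, 4.95% for MT-CYB and 3.48% for MT-ND3. MT-CO2, which stood above all controls, thus shares much of its sequence, whereas MT-CYB shares little. The copy with the most counts was MTATP6P1 (ENSG00000248527, chr1:633696-634376, plus strand), which matches MT-ATP6 over 681 bases with 10 mismatches. A stretch of 60 bases is shown from each, with the mismatched bases in capitals.
MT-ATP6, chrM:8642-8701, plus strand: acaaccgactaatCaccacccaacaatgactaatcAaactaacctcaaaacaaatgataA
MTATP6P1, chr1:633811-633870, plus strand: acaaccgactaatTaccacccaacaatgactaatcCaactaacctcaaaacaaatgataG

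Counts assigned to MTATP6P1 were 35.7, 41.5 and 22.4% of those assigned to MT-ATP6 in iKD2 Dox+, 24.9 and 21.4% in iKD2 Dox-, and 33.8 and 23.1% in iSCR Dox+. The groups overlapped, and the difference of iKD2 Dox+ from the pooled controls was 7.36 percentage points (exact permutation test, p = 0.257). How many of these counts belonged to MT-ATP6 could not be measured, so its level is uncertain. MTND2P28 (chr1:629640-630683), with 17 mismatches over 1042 bases, had 1.65 to 3.23% of the counts of MT-ND2. MTND6P9 had up to 3.75% of the counts of MT-ND6, and the leading copy of each of the other mRNAs and of MT-RNR2 had at most 0.577% of its parent's counts in any library. With the copies added to their parents, the share of mRNAs differed by 0.295 percentage points between iKD2 Dox+ and iKD2 Dox- (exact permutation test, p = 0.10), close to the 0.282 points without them.

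The nuclear genes that express the mitochondrial genome were examined as lists chosen with earlier results of these data known. They held 139 genes of transcription, RNA cleavage, stability and modification, replication and the mitochondrial ribosome, all of which were tested. With edgeR's quasi-likelihood test and Benjamini-Hochberg adjustment, 0 of 139 were past an adjusted p of 0.05 in each comparison, and 1, 3 and 2 were past an unadjusted p of 0.05, beside 3.72%, 6.72% and 4.45% of all genes. Named after their values were seen, these were MRPS22 in the first comparison, MRPS34, MRPL4 and MRPL21 in the second, all proteins of the mitochondrial ribosome, and MRPS22 and the RNA helicase DHX30 between the controls. The median log2 fold changes of the 139 genes were -0.09, -0.13 and -0.03, beside 0.01, 0.08 and 0.04 over all genes. POLRMT, the mitochondrial RNA polymerase, was at 77.3, 59.7 and 80.3 CPM in iKD2 Dox+, at 48.0 and 87.1 in iKD2 Dox-, and at 46.9 and 72.9 in iSCR Dox+. TFAM, which packages mitochondrial DNA and starts its transcription, ranged from 13.1 to 42.1 CPM, and TFB2M, which opens the promoter, was lower still. For POLRMT and TFAM, iKD2 Dox+ overlapped each control group. TFB2M was at 10.5, 6.49 and 1.54 CPM in iKD2 Dox+, below both iSCR Dox+ libraries at 11.7 CPM and above, and overlapped iKD2 Dox- at 4.09 and 7.73. LRPPRC, which with SLIRP stabilises the heavy-strand mRNAs, was at 98.2, 144 and 92.0 CPM in iKD2 Dox+, 122 and 120.0 in iKD2 Dox- and 141 and 164 in iSCR Dox+. SLIRP ranged from 0.598 to 15.4 CPM. TWNK, the replicative helicase, ranged from 2.94 to 23.2 CPM, and POLG, the DNA polymerase, was at 11.8 CPM in iSCR Dox+ a and at 63.1 to 120 in the other 6 libraries. The log2 fold changes of these 7 genes had standard errors of 0.29 to 1.73, and the lowest adjusted p among them was 0.702.

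The nuclear-encoded subunits of the same complexes gave a median log2 fold change, for iKD2 Dox+ against iKD2 Dox-, of -0.05 for 37 complex I, -0.21 for 9 complex III, -0.21 for 11 complex IV and -0.25 for 17 ATP synthase genes. In all 3 comparisons 0 of these genes were past an adjusted p of 0.05 with edgeR's quasi-likelihood test, the lowest adjusted p being 0.0536. Over all genes the shares were 0.0393%, 0.0262% and 0.0131%. In the first comparison 1 complex I gene, NDUFA6, was past an unadjusted p of 0.05, beside 3.72% of all genes. Against iSCR Dox+ NDUFA10 was past it, beside 6.72%. Between the controls NDUFA6, NDUFV3, COX6B1 and UQCRQ were past it, beside 4.45%. These genes were named after their values were seen. NDUFA6 was at or near 0 counts in both iKD2 Dox- libraries and well counted in the other 5. Beside these medians stands the 0.20 of the 13 mitochondrial mRNAs. Against iSCR Dox+ the medians were -0.19, -0.27, -0.12 and -0.27, beside 0.03. Summed levels of the 17 nuclear ATP synthase genes were 1037 to 1080.3 CPM in iKD2 Dox+, below 1109.8 to 1225 in iKD2 Dox- and 1281 to 1327 in iSCR Dox+. The sums of the nuclear complex I, III and IV genes overlapped both control groups. The 18 genes of mitochondrial RNA stability summed to 580.4 to 714 CPM in iKD2 Dox+, below 753 to 827 and 742 to 789.7 in the controls, and 0 of the 18 were past an unadjusted p of 0.05 in either comparison of iKD2 Dox+. The sums of the transcription, cleavage, modification and replication lists overlapped both control groups, and that of the ribosomal proteins overlapped iKD2 Dox- and lay below iSCR Dox+. The nuclear-retained RNAs MALAT1, NEAT1, KCNQ1OT1 and MEG3 summed to 20275 to 24177 CPM in iKD2 Dox+, 16170.3 to 19482 in iKD2 Dox- and 19396 to 20596 in iSCR Dox+, so that iKD2 Dox+ was above iKD2 Dox- and overlapped iSCR Dox+. MALAT1 made up nearly all of this sum, 0 of the 4 were past an adjusted p of 0.05 with edgeR's quasi-likelihood test, and KCNQ1OT1 and MEG3 had negative log2 fold changes in both comparisons. The part of these levels in the mitochondrial values was not tested.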

How the data were processed

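RNA of 7 sorted H1-derived β-like cell samples was sequenced as paired 100-base reads from strand-preserving libraries. The authors deposited estimated counts per Ensembl gene, which they made with fastp and Kallisto (named in the submitters' processing notes without versions) and summed to genes; the genome build, annotation and strand setting are not given in the sources used here. The estimated counts were rounded to whole numbers. Symbols were matched by Ensembl identifier, for 59369 of 66025 IDs in the name table and for 57402 in GENCODE 29. Total counts per sample were 14875429 to 20639156, and the floor of 3 counts covers counting error only. Members, lists and tests were chosen with earlier results of these data known.

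Genes kept by edgeR's filterByExpr (22926) were fitted with its quasi-likelihood test (glmQLFit robust, glmQLFTest; edgeR 4.0.16, R 4.3.3) after TMM scaling, with all 3 groups in 1 fit and Benjamini-Hochberg adjustment. The fit was tested on simulated data. Single values per library were compared by two-sided exact permutation tests (SciPy 1.17.1, Python 3.11.15). Alternatives used DESeq2 1.42.0, limma 3.58.1, other scaling factors and filters, the groups compared alone, pooled controls, replicate letters as a block, and each library left out. The 95% intervals of fold changes come from the fit and include the spread between libraries. The fit moved each gene's spread toward a trend over all genes, so these intervals and its p-values rest in part on other genes. Named were all mRNAs and rRNAs, tRNAs with at least 10 counts, POLRMT, TFAM, TFB2M, LRPPRC, SLIRP, TWNK, POLG, METTL14, list members past an adjusted p of 0.05, and the leading nuclear copy of a gene. Other genes named are marker examples or the few list members past an unadjusted p, chosen after their values were seen. No column of per-sample values was left out.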

Additional observations from a re-analysis of the deposited data

How the results depend on the processing

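The count of mitochondrial mRNAs past an adjusted p of 0.05 was 0 under every alternative run, and of the recomputed values 691 kept their direction and side of the threshold, 19 changed sign and 13 moved otherwise. For iKD2 Dox+ against the 4 controls pooled, the median log2 fold change of the mRNAs was 0.0855 and that of MT-ND1 0.00296. For iKD2 Dox+ against iSCR Dox+, 1 mRNA, MT-ND6, was past an unadjusted p of 0.05 and 1.5-fold with the DESeq2 Wald test, with the replicate block and without iKD2 Dox+ c, where 14.3%, 5.19% and 5.12% of all genes were past both limits, so that over libraries left out this count ran from 0 to 1. MT-RNR2 in that comparison became 0.0176 with library totals alone, 0.000359 with every gene of at least 1 count, 0.0475 with the replicate block, and over libraries left out it ran from -0.0994 (without iSCR Dox+ b) to 0.0843 (without iSCR Dox+ a), turning positive also without iKD2 Dox+ c, while MT-RNR1 ran from -0.208 to 0.0392 for the same libraries. Between the controls, MT-ND4L became -0.0228 or -0.0227 and MT-RNR1 -0.00582 with DESeq2 size factors and with the DESeq2 Wald test, and the median of the mRNAs -0.0724 with the replicate block. Leaving out libraries moved the median of the mRNAs from 0.108 to 0.207 against iKD2 Dox-, from -0.0592 to 0.149 against iSCR Dox+, and from -0.180 to -0.0311 between the controls. MT-ND6 against iKD2 Dox- ran from -0.673 (without iKD2 Dox- b) to 0.0368 (without iKD2 Dox- c). Between the controls, MT-CYB ran from -0.0114 to 0.356 and MT-CO2 from -0.0414 to 0.216 (lowest without iKD2 Dox- b), MT-ND4 from -0.0692 to 0.203 and MT-RNR1 from -0.0831 to 0.163 (lowest without iSCR Dox+ b), and MT-ND4L from -0.0714 (without iSCR Dox+ b) to 0.114, being negative also without iKD2 Dox- b. The share of mRNAs between the controls ran from -0.212 to 0.0418 percentage points, turning positive without iSCR Dox+ a. The nuclear genes of mitochondrial gene expression past an adjusted p of 0.05 ran from 0 to 2 in both comparisons with iSCR Dox+, reaching 1 (MRPL53) without iSCR Dox+ a and 2 (MRPL55 and POLG) without iSCR Dox+ b. The number of mRNAs above all 4 controls ran from 4 to 6 over libraries left out, a step that cannot lower it. The cause of these shifts was not tested. Deviations from the group means correlated between -0.0170 and 0.0153 for libraries with the same replicate letter. In a group of 2 libraries the deviations mirror each other, so this check holds few independent values and cannot exclude pairing by letter. With groups of 2 and 3 libraries and a lone library per group in some fits, which is assumed to vary like the rest, only large differences could be called.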
